A study of Rattus norvegicus with 4 samples.

Results

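The genes described here are the core machinery of autophagy in NR8383, a macrophage line derived from rat lung lavage. They were chosen by name: 36 genes for the initiation complex, the class III PI3-kinase complex, membrane supply and lipid transfer, the conjugation enzymes, the ATG4 proteases, the ATG8 proteins and the cargo receptors. Of these, 35 had at least 1 probe on the array, among 18859 named genes. They were covered by 57 of the 45598 probes that were not controls. Calcoco2, a cargo receptor, had no matching probe and was not analysed here. Of the 57 probes, 56 carried the gene's symbol, and the Atg4a probe carried its older symbol, Atg4al1.

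The study holds 4 replicates of 1 group, control NR8383 cells kept submerged under culture medium, read on one-colour rat expression arrays. All 4 carried the same conditions: 1 line after 20 passages in DMEM with 15% fetal bovine serum, 2 mM L-glutamine and antibiotics. The cells were partly adherent and partly floating, and they come from an established line, so the replicates are cultures and not animals. The sources differ on time, with 4 h under medium in one place and 48 h from seeding in another, and which applies to these RNAs was not settled. There is no starved, stimulated or inhibited group, so no comparison between conditions was made.

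Autophagy encloses part of the cytoplasm in a double membrane, the autophagosome, and delivers it to the lysosome for breakdown. The ULK1 kinase complex starts the process, a lipid kinase complex around VPS34 marks the forming membrane, and a ubiquitin-like conjugation system attaches ATG8 proteins such as LC3 to it, where they hold cargo receptors. Macrophages use the same machinery to clear bacteria and damaged organelles, and some of its proteins also act on phagosomes. Much of its regulation acts on proteins, which an array for RNA does not measure.

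Levels below are the log2 processed fluorescence of a gene's brightest detected probe minus the array's 75th percentile, so that 0 is the level of the 75th percentile itself. They are given as mean ± SD over 4 replicates. Detection on an array means that the scanner software marked more than 0.5 of a probe's spots as well above background. A higher reading can come from more cells carrying a transcript or from more transcript per cell, which cannot be told apart here. Probes differ in how strongly they bind, so the levels of different genes are not ranked.

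Of the 36 genes, 34 were detected on all 4 arrays, 1 was detected on none and 1 had no probe. Over all named genes, 54.9% were detected on all 4 arrays, 10355 of 18859. The mean level lay above 0 for 17 of the 34 detected genes (50.0%), against 37.3% of all detected genes. The median level was 0.05 for the 34 and -0.85 for all detected genes. The plot of levels by gene shows the 4 replicates close together at nearly every gene.

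**Figure D1:**
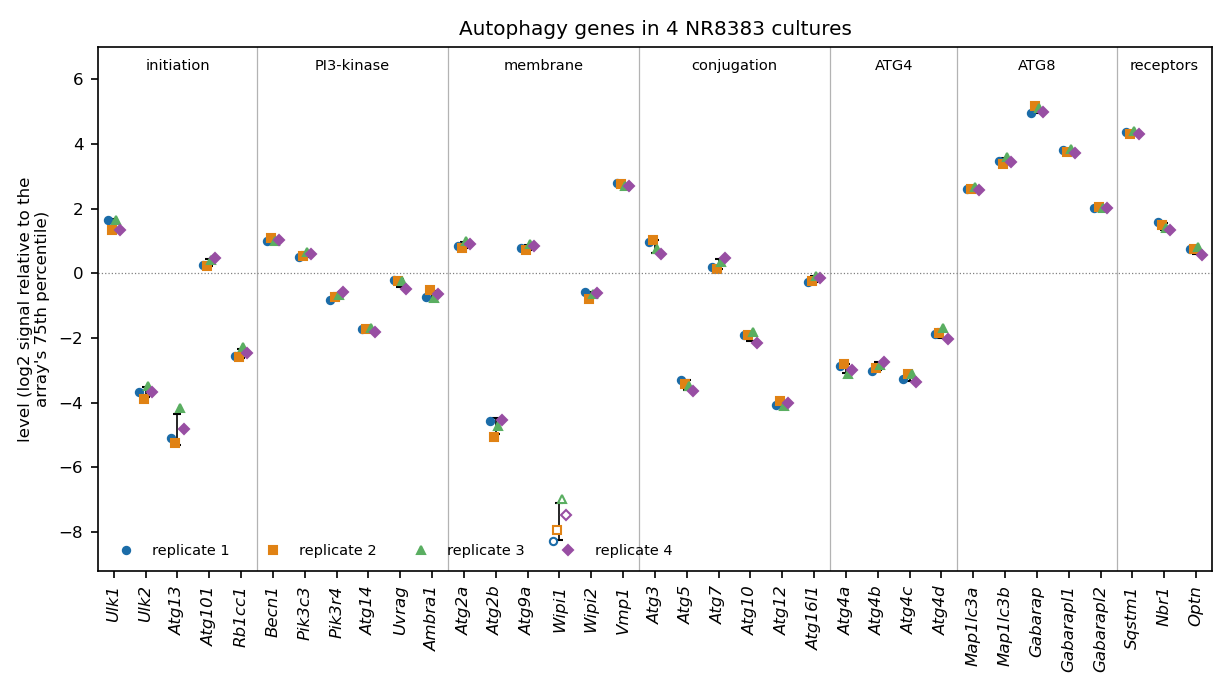
Level of each of the 35 genes with a probe (y axis, log2 signal relative to the array's 75th percentile) in each replicate culture, grouped by role from left to right. Symbols are replicates, bars are mean ± SD, and open symbols mark arrays where the probe was not detected. Wipi1 is the single gene with open symbols, and Atg13 and Atg2b show the widest spread among the detected genes.

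Wipi1, which binds the lipid made by VPS34 on early autophagosomes, was the undetected gene. Its single probe lies at chr10:98749014-98749073 on rn4, the build of the array's own coordinates. The probe is shown whole because the lack of detection rests on these 60 bases alone.
Wipi1: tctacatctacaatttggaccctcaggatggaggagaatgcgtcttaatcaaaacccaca
It gave processed signals of 4.2, 6.04, 9.28 and 5.35 on replicates 1 to 4, in fluorescence units. The lowest signal that any probe had while well above background was 16.65, 18.44, 19.09 and 20.33 on the same arrays, so all 4 readings lay under that limit. A looser flag of the scanner software, positive and significant against background, was set on 2 of the 4 arrays. Its relative Wipi2, which brings ATG16L1 to the membrane, was detected on all 4 arrays at -0.66 ± 0.10.

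All 5 genes of the initiation complex were detected. Ulk1, the kinase that receives signals from nutrient sensors, read 1.64, 1.35, 1.65 and 1.35 on replicates 1 to 4, a level of 1.5 ± 0.17. Replicates 1 and 3 lay together above replicates 2 and 4. Ulk2, a related kinase, read -3.68, -3.88, -3.47 and -3.66. Its second probe fell below its own mean on replicate 3 by 0.42 where the first rose above its mean by 0.20, so the probes gave no common order of replicates.

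Atg13, the adaptor that binds ULK1, had the widest spread of the 34 genes, with levels of -5.08, -5.25, -4.18 and -4.83. Its processed signal was 38.8, 39.1, 64.9 and 33.7 fluorescence units, under 100 on every array. The lowest signal that any probe had while well above background was 16.65, 18.44, 19.09 and 20.33 on those arrays. Replicate 3 stood highest, 2.10-fold above replicate 2, the lowest. The spread did not pass limma's variance F test against probes of like signal (adjusted p = 0.933, Benjamini-Hochberg over 19400 probes, unadjusted p = 0.0975). Atg13 was the single gene of the 34 whose highest and lowest replicates differed by 1.5-fold or more.

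Atg101, which stabilises ATG13, read 0.27, 0.22, 0.40 and 0.47, with all 4 values within 1.19-fold of each other. Rb1cc1, also called FIP200, the scaffold of the complex, read -2.57, -2.60, -2.28 and -2.47. Both of its probes were highest on replicate 3, by 0.20 and 0.22 above their means. Averaged over the 5 genes, the initiation complex deviated from its mean by -0.05, -0.20, 0.25 and 0.00 on replicates 1 to 4, with Atg13 adding most.

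The class III PI3-kinase complex, which makes phosphatidylinositol 3-phosphate on membranes, was detected in full, with all 6 genes on all 4 arrays. Becn1, Beclin 1, its regulatory subunit, read 0.99, 1.09, 0.99 and 1.02, so that the replicates spanned 1.07-fold. Pik3c3, the catalytic subunit VPS34, read 0.51, 0.55, 0.67 and 0.60, and Pik3r4, the subunit VPS15 that anchors it, read -0.81, -0.73, -0.68 and -0.58. The SDs of these core subunits were 0.05, 0.07 and 0.09.

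Atg14, which directs the complex to autophagosome formation, stood at -1.74 ± 0.05. Uvrag, which takes its place in the complex that acts on endosomes, read -0.22, -0.23, -0.24 and -0.49 with its brighter probe. Replicate 4 lay apart there, but the second Uvrag probe did not follow, since it read -2.79, -2.94, -2.96 and -2.76 and was highest on replicate 4. Ambra1, a partner of Beclin 1 that also helps to recruit ubiquitin ligases, stood at -0.66 ± 0.12.

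Among genes for membrane supply and lipid transfer, 5 of 6 were detected. Atg9a, a lipid scramblase carried on small vesicles, stood at 0.81 ± 0.08, and Vmp1, an endoplasmic reticulum scramblase, at 2.74 ± 0.04. The genes of the ATG2 proteins, which carry lipid between membranes, were both detected: Atg2a at 0.88 ± 0.09 and Atg2b at -4.72 ± 0.24. Atg2b had processed signals of 55.4, 44.5, 45.2 and 41.2 units, and replicate 2 read lowest at -5.07.

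Each of the ATG2 genes was detected through 1 of 2 probes, so each call rests on a single probe. The first 30 bases of the 4 probes are shown because the call depends on which is read.
Atg2a detected probe: tgtatttttaagctccctgagcgtgtgggt
Atg2a undetected probe: aagctgaaggtaggctccagctctgtttag
Atg2b detected probe: cacgcctctgtacaagtatttttgtgaaaa
Atg2b undetected probe: tttgcatagacttgatttccttttgctgcc
The Atg2a probes lie at chr1:209037483-209037542 and chr1:209039735-209039794 on rn4, and the Atg2b probes at chr6:129771485-129771544 and chr6:129773509-129773568, each pair in the order printed. The undetected probes read -7.43 for Atg2a and -8.10 for Atg2b on average. Why the probes of 1 gene differ was not tested.

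The genes grouped as conjugation enzymes, of the system that activates and attaches ATG12 and the ATG8 proteins, were all detected, 6 of 6. Atg7, Atg3 and Atg10 encode its enzymes, and Atg12 itself, Atg5 and Atg16l1 were counted with them. Atg3, the E2-like enzyme that transfers ATG8 proteins to lipid, read 0.96, 1.03, 0.76 and 0.60, a level of 0.84 ± 0.19. Replicates 1 and 2 lay above replicates 3 and 4, with 1.34-fold from highest to lowest. Atg3 had the smallest p of the 34 genes in limma's variance F test, 0.0717 (adjusted p = 0.851, Benjamini-Hochberg over 19400 probes), and so did not pass.

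Atg5, which forms the E3-like complex with ATG12 and ATG16L1, read -3.29, -3.42, -3.49 and -3.65. Its partners Atg12 and Atg16l1 stood at -4.04 ± 0.06 and -0.18 ± 0.09. Atg12 was read from signals under 100 units on every array, as were Atg13 and Atg2b.

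Atg7, the E1-like enzyme, had the widest span among probes detected on all arrays. Its 4 probes lie in the same stretch of chromosome 4 on rn4, and their first 30 bases are given in the order of their levels.
Atg7 probe at 0.29: tcgctggggcttgtacctcaccagatccgg
Atg7 probe at 0.25: ggtcaacttttcccaacaacaacaacaatg
Atg7 probe at -5.02: agattaaaggtgtgaccatgtctggaccta
Atg7 probe at -6.12: tatgagaccagcctgatttataaagcaagt
In the same order they are at chr4:150854179-150866191, in a gapped match, chr4:150993864-150993923, chr4:150915074-150915133 and chr4:150935899-150935958. The first has a curated RefSeq transcript as its source, and the others have predicted transcript models. The lowest probe was detected on 1 array and the others on all 4. The 3 probes detected on all arrays spanned 5.30 log2 units, or 39.5-fold. The probe used for the level of Atg7 read 0.20, 0.14, 0.34 and 0.47, a level of 0.29 ± 0.15, so the difference between its probes was far larger than the spread between replicates.

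Atg10, the E2-like enzyme for ATG12, was likewise detected through 1 of 2 probes. Their first 30 bases differ throughout, and the probes lie at chr2:21076790-21076849 and chr2:21177391-21177450 on rn4.
Atg10 detected probe: tgtgtgcttgctttagtgtacaatgtgtga
Atg10 undetected probe: gtatcatggaagatggcaagggatatagga
The detected probe read -1.91, -1.92, -1.83 and -2.17, lowest on replicate 4, and the undetected probe averaged -7.85. Atg2a, Atg2b, Atg7 and Atg10 were the 4 detected genes with a probe that was not detected on all arrays. The undetected probes of Atg2a and Atg10 and the lowest probe of Atg7 are assigned to predicted transcript models. Both Atg2b probes are assigned to 1 predicted transcript model of the non-coding class.

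The genes of the ATG4 proteases, which prepare ATG8 proteins for conjugation and release them again, were all detected, 4 of 4. Each was read by 1 probe. Atg4a read -2.86, -2.80, -3.11 and -2.98, and Atg4b, the most active member of the family on LC3, read -3.02, -2.92, -2.82 and -2.74. Atg4c and Atg4d stood at -3.22 ± 0.12 and -1.86 ± 0.14. Their SDs lay between 0.120 and 0.137, and none of the 4 had a mean level above 0.

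All 5 ATG8 genes were detected and all had mean levels above 0. Map1lc3a read 2.60, 2.62, 2.67 and 2.59. Gabarap, the founding member of its subfamily, read 4.96, 5.16, 5.12 and 5.00, and Gabarapl1 read 3.82, 3.76, 3.85 and 3.73. Gabarapl2, also called GATE-16, read 2.03, 2.04, 2.01 and 2.02 and had the smallest SD of the 34 genes, 0.0118. Its second probe had an SD of 0.0817, so the smallest value belongs to 1 probe. The replicates of the 5 genes lay within 1.16-fold of each other.

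Map1lc3b, the LC3 gene most used as a marker of autophagosomes, was covered by 5 probes, all detected on all 4 arrays. Their first 30 bases follow because no other gene described here was read by as many.
Map1lc3b probe at 3.47: aagatgctgctcaggcagccattgtaggac
Map1lc3b probe at 3.36: gccattgtaggacacctgtactctgatgca
Map1lc3b probe at 2.78: gtgcatttggcttggaaactcatctaaact
Map1lc3b probe at 0.97: tatgagcgaactcatcaagataattagaag
Map1lc3b probe at 0.09: gcactggctgttacatacatgtcagctctg
The probe at 3.47 is at chr19:51854787-51854846 and the probe at 2.78 at chr19:51853724-51853783 on rn4. Those at 0.97 and 0.09 have gapped matches, at chr19:51852782-51853426 and chr19:51853554-51854448, and the probe at 3.36 has no position in the files. The 5 probes spanned 3.39 log2 units, or 10.5-fold, although they are assigned to 1 gene.

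The brightest Map1lc3b probe read 3.46, 3.39, 3.61 and 3.44. All 5 probes were highest on replicate 3, by 0.10 to 0.21 above their own means. The 5 probes were read on the same 4 RNAs and are not independent samples. For the Map1lc3b probe at 2.78, which was printed 10 times on each array, the SD between spots was 0.0804 and the standard error of an array's mean 0.0256. The SD between the 4 arrays was 0.0828, or 3.23 times that standard error. Spot error leaves out labelling, hybridisation and culture, so the ratio describes the size of the spot error and tests nothing about the gene.

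The same measure was available for a Gabarapl1 and a Vmp1 probe, also with 10 spots each. For Gabarapl1 the SD between arrays was 0.0554, 2.37 times the standard error of 0.0234. For Vmp1 it was 0.0398, 1.1 times the standard error of 0.0363.

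A pair of the Map1lc3b probes overlaps, as does the pair for Atg9a, which allows the same stretch of transcript to be read from separate spots. The end of each shared stretch is shown with the polyadenylation signal AATAAA in capitals.
Atg9a shared end: gataacccttAATAAAgaagggaatttgaa
Map1lc3b shared end: acctgtactctgatgcactaagtcAATAAA
The Atg9a probes share 57 bases and differed by 0.05, 0.00, 0.04 and 0.02 log2 on replicates 1 to 4. The Map1lc3b probes at 3.47 and 3.36 share 43 bases and differed by 0.13, 0.12, 0.06 and 0.14. Both differences stayed under 0.15 on every array. Detected probes of 1 gene that read other stretches ranged from near agreement to wide spans. Of the Atg7 probes, those at 0.29 and 0.25 nearly agreed, while the 3 detected on all arrays spanned 5.3 log2 units. The detected probes of Vmp1 spanned 4.14 log2 units. AATAAA occurred in the sense sequence of 15 of the 57 probes (26.3%) and in 9.04% of all probes. The 15 count the shared Atg9a site and the shared Map1lc3b site on both probes of each pair. All 15 were among the 52 probes detected on all 4 arrays. All probes include unnamed and undetected ones, and the share among other detected probes was not taken.

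Of the 4 listed cargo receptors, 3 had probes, and all of those were detected on all 4 arrays. Sqstm1, or p62, which links ubiquitinated cargo to LC3, read 4.36, 4.31, 4.41 and 4.32 at its brightest probe, all within 1.07-fold. Its 3 probes spanned 2.40 log2 units, or 5.26-fold. The brightest Sqstm1 probe shares 51 bases, on the opposite strand, with a probe for Mrnip, a DNA repair gene, which was detected on none of the arrays. No other probe of the 35 genes shared 20 or more bases with a probe of another gene.

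Nbr1, a receptor related to p62, read 1.58, 1.5, 1.40 and 1.33, and both of its probes were highest on replicate 1. Optn, optineurin, which binds ubiquitinated bacteria and mitochondria, read 0.76, 0.74, 0.81 and 0.56. Its 3 probes were all lowest on replicate 4, by 0.09 to 0.25, and all above their means on replicate 3.

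**Figure D2:**
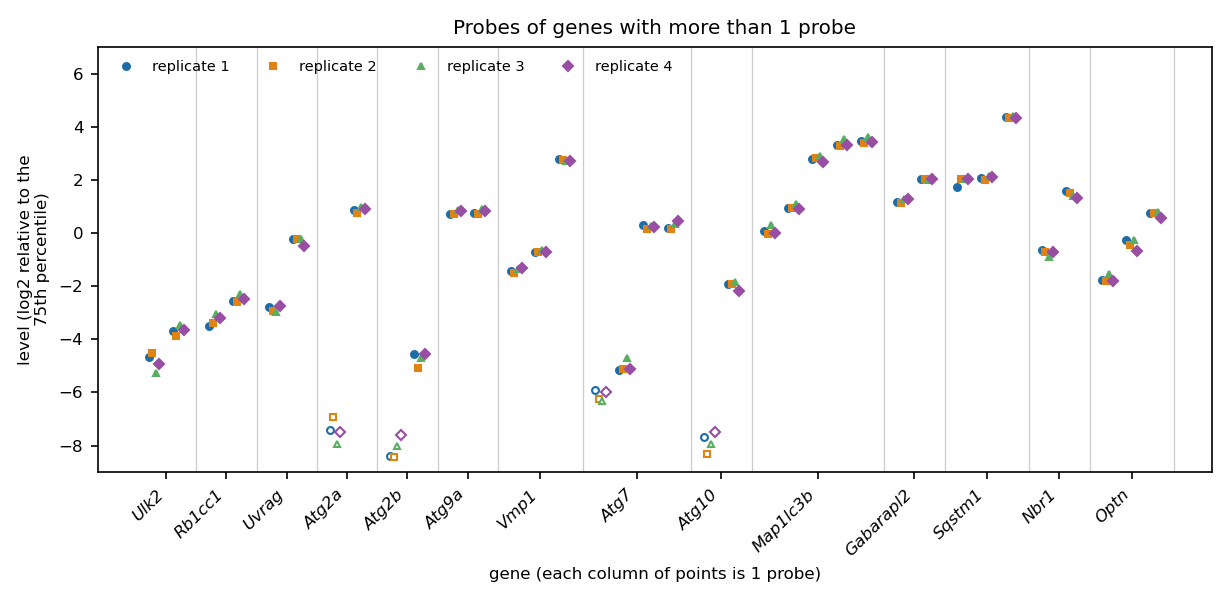
Level of every probe (y axis, log2 signal relative to the array's 75th percentile) for the 14 genes with more than 1 probe, 1 column of points per probe, ordered by mean level within each gene. Symbols are replicates, and open symbols mark probes not detected on all 4 arrays. Probes of Atg7 lie up to 5.30 log2 units apart among detected ones, while the Atg9a pair, which shares 57 bases, lies 0.03 apart.

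Of the 35 genes with a probe, 21 had 1 probe and 14 had several. In 10 of those 14 all probes were detected, so that 30 genes were detected by every probe they had. The probes of Vmp1 spanned 4.14 log2 units, or 17.6-fold, and those of Uvrag, Optn and Nbr1 spanned 2.57, 2.45 and 2.19. On rn4, 44 of the 57 probes matched in 1 block of their full length, 7 spanned more than their length, 3 spanned less and 3 had no position.

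No gene of the 34 passed the variance test, and none of their 52 tested probes did. Over all detected genes, 0.145% passed, 15 of 10355, and over all tested probes 0.170%, 33 of 19400. At an unadjusted p under 0.05 the counts were also 0 of 34 genes and 0 of 52 probes, against 5.67% of all detected genes and 6.50% of all tested probes. The adjusted p-values of the 34 genes ran from 0.851 to 1.0 (limma's F test, Benjamini-Hochberg). With 15 passing genes in 10355, a count of 0 among 34 is close to that background and says little about these genes in particular.

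The median SD of the 34 genes was 0.109, beside 0.112 for all detected genes. The SD was 0.15 or less in 29 of the 34. Divided by the SD that limma's prior gives at the same level, the median was 0.866 for the 34 genes and 0.899 for all detected genes, and 11 of the 34 lay above the prior. In the plot of spread against level, the prior's SD is larger for dim genes, some genes of wide spread are not dim, and the autophagy genes lie within the cloud of other genes.

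**Figure D3:**
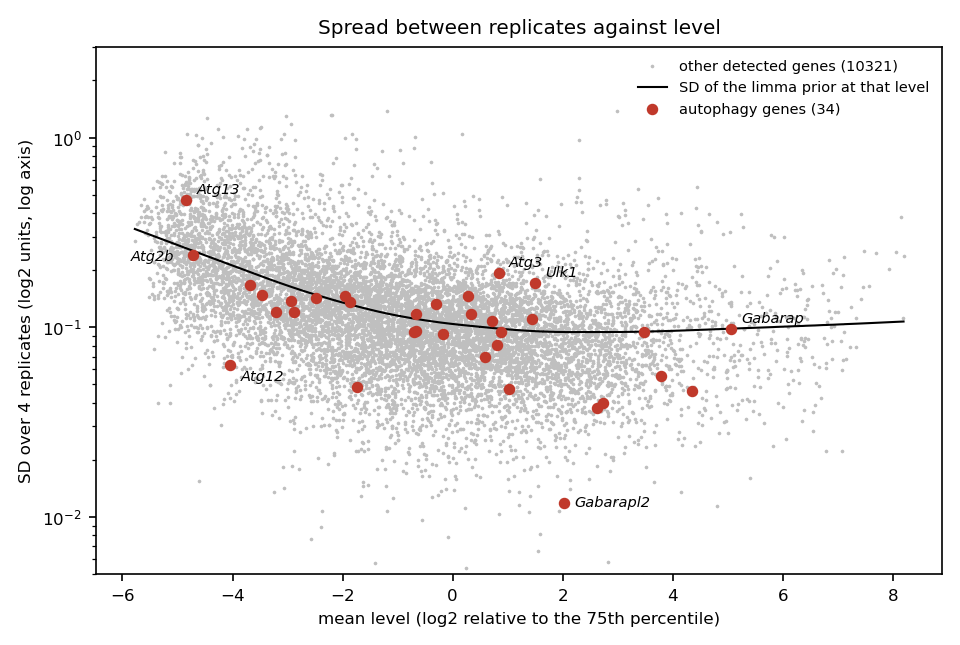
SD over 4 replicates (y axis, log2 units on a log axis) against mean level (x axis, log2 relative to the array's 75th percentile) for the 34 detected autophagy genes in red and the other 10321 detected genes in grey. The line is the SD of limma's prior at each level. The 34 genes lie within the grey cloud, with Atg13 at an SD of 0.469 and Gabarapl2 at 0.0118.

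Replicate 3 was the highest of the 4 cultures for 16 of the 34 genes (47.1%), beside 22.7% of all detected genes. Replicates 1, 2 and 4 were highest for 5, 8 and 5 genes. The median deviation of the 34 genes on replicate 3 was 0.060 log2, while that of all detected genes was -0.008. The genes were read on the same arrays, so this is a description of 1 culture against 3 and was not tested. The count was between 14 and 18 when the background correction, the array scaling among sample probes, the handling of flagged spots or the summary over probes was changed. Under those settings the share of all detected genes highest on replicate 3 was 21.5% to 27.5%. When the summary over probes was changed, the share of all detected genes stayed that by brightest probe, 22.7%. With arrays scaled on the spike-in probes instead, the count was 1 of 34 (2.94%), beside 0.975% of all detected genes. Replicate 1 was then highest for 19 genes (55.9%), beside 47.3% of all detected genes. On replicates 1 to 4 the spike-in probes averaged 1.86, 1.87, 2.46 and 2.85 log2 over the sample percentile. The replicate that reads highest thus depends on the scale, for these genes and for all detected genes.

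The genes highest on replicate 3 came from several roles. Averaged by role, replicate 3 stood 0.25 above the mean for the initiation complex, 0.06 for the ATG8 proteins, 0.04 for membrane supply and for the ATG4 proteases, 0.03 for the receptors, 0.02 for the conjugation enzymes and 0.01 for the PI3-kinase complex. Except in the initiation complex these are shifts of at most 0.06. The receptors fell by 0.11 on replicate 4 and the conjugation enzymes by 0.07.

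**Figure D4:**
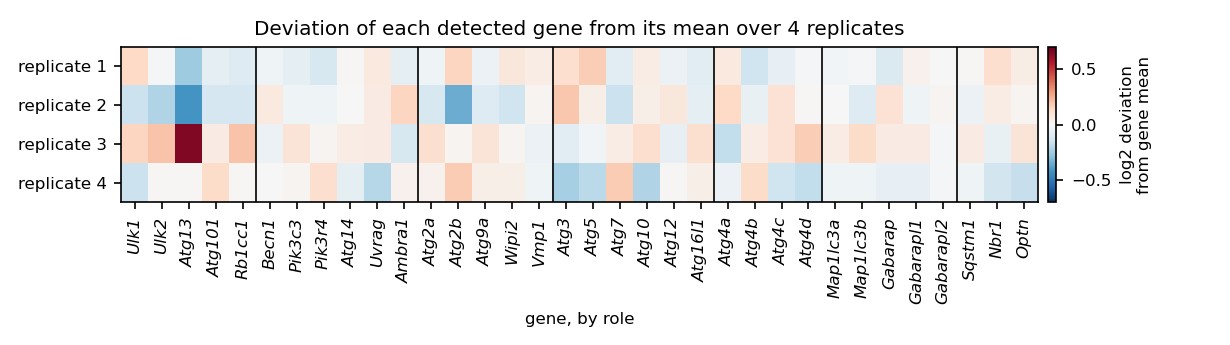
Deviation of each of the 34 detected genes (x axis, grouped by role) from its own mean over 4 replicates, for each replicate (y axis), in log2 units by colour from blue (below) to red (above). Most cells are pale, and Atg13 holds the strongest colours, with replicate 3 above and replicate 2 below its mean.

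Between pairs of cultures, the SD of the log2 differences of the 34 genes ran from 0.14 to 0.243, and that of all detected genes from 0.191 to 0.303. Differences over 0.5 log2 units were found for at most 1 of the 34 genes in any pair, beside 2.52% to 6.86% of all detected genes. The genes were Atg13, in the 3 pairs that include replicate 3, and Atg2b, between replicates 2 and 4. Both were read from signals under 100 units on every array.

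Further genes of the pathway were listed by function, as 72 symbols in 5 lists. Of these, 68 had a probe and 62 were detected on all 4 arrays, beside 54.9% of all named genes. None of the 62 passed the variance test, beside 0.145% of all detected genes, and 2 had an unadjusted p under 0.05, beside 5.67% of all detected genes, which a count of 2 in 62 does not exceed. Of the nutrient and transcription control list 19 of 20 were detected. They included the kinase Mtor at -3.03 ± 0.11, its partners Rptor at 1.95 ± 0.11 and Rictor at -1.54 ± 0.10, and Mlst8 at -0.61 ± 0.03. Prkaa2, a catalytic subunit of the energy sensor AMPK, was detected on none of the arrays.

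Mitf and Foxo3, transcription factors that act on lysosomal and autophagy genes, were the pair with an unadjusted p under 0.05. Mitf read 3.58, 3.33, 2.75 and 3.08, lowest on replicate 3, with an adjusted p of 0.231 in limma's F test. Foxo3 read -0.42, -0.53, -0.97 and -0.81, also lowest on replicate 3, with an adjusted p of 0.712 in the same test. Neither passed, and both were picked out after their values were seen.

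Partners of the PI3-kinase and the WIPI proteins were detected in 10 of 11 cases. Nrbf2, which supports the ATG14 complex, stood at -0.66 ± 0.04. Rubcn, an inhibitor of the complex that holds UVRAG, stood at -4.11 ± 0.17. The related Rubcnl stood at -4.48 ± 0.20 and the WIPI relative Wdr45 at -1.83 ± 0.28. Bcl2, which binds Beclin 1, was detected on 1 array. Trim30 had no matching probe.

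Of 8 further genes in the membrane supply list 7 were detected, among them the scramblase Tmem41b at -0.39 ± 0.07 and Zfyve1 at -0.02 ± 0.08. Epg5, at -0.18 ± 0.06, was counted in this list although it acts in fusion with the lysosome. Atg9b, the second ATG9 gene, was detected on none of the arrays, so Atg9a was the ATG9 gene detected. The genes listed for fusion with the lysosome were detected in full, 15 of 15. Stx17, the SNARE of the autophagosome, stood at -2.43 ± 0.13, with its partners Snap29 at 1.1 ± 0.10 and Vamp8 at 3.66 ± 0.11, and the SNARE Ykt6 at -0.82 ± 0.15.

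Other receptors and genes for mitophagy, the removal of mitochondria, were detected in 11 of 14 cases. The receptors Tax1bp1 and Tollip stood at 1.27 ± 0.03 and 0.59 ± 0.09, and the mitochondrial receptors Bnip3 and Bnip3l at 0.29 ± 0.10 and 2.53 ± 0.11. Fundc1, another mitochondrial receptor, and the endoplasmic reticulum receptor Retreg1, with 1 probe each, were detected on none of the arrays.

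The cells were checked against markers of macrophages and of other cell types in lung. All 6 macrophage markers were detected: Cd68 at 4.74 ± 0.05, Lyz2 at 6.67 ± 0.06, Mrc1 at 0.15 ± 0.27, Csf1r at -0.02 ± 0.10, Spi1 at -0.43 ± 0.12 and Itgam at -0.90 ± 0.74. Itgam and Mrc1 had the widest spread of the 6 markers, with Itgam at -1.42, -0.56, -1.59 and -0.03 and Mrc1 at 0.46, 0.27, -0.16 and 0.02. In limma's F test their unadjusted p-values were 1.4e-04 and 0.0190 and their adjusted p-values 0.0647 and 0.542, so neither passed. Whether this spread has a part in that of the autophagy genes was not tested. Of 23 markers of other types 4 were detected on all 4 arrays, beside 54.9% of all named genes. Dcn, 1 of 5 fibroblast markers, stood at -2.24 ± 0.18, and Cdh5, 1 of 4 for endothelium, at -3.88 ± 0.26. Cd3d, 1 of 3 T cell markers with a probe, stood at -3.42 ± 0.24, and Mpo, 1 of 4 for neutrophils, at -4.89 ± 0.30. None of the 7 epithelial markers was detected on all arrays. S100a8 of neutrophils was detected on 3 arrays, the epithelial Sftpa1 and Scgb1a1 on 2 and Sftpc on 1. The scaling percentile lay at 1317, 1489, 1179 and 958 units by replicate, no spot was saturated, and 2 spots of the autophagy probes were flagged, both on replicate 1.

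Promoter sequences were found in the RefSeq table of the GRCr8 build for 32 of the 36 genes, from 250 bases before to 50 after the start of the gene. They were searched on both strands for motifs tied to lysosomal, oxidative stress and housekeeping control. TCACGTGA, part of the element read by TFEB and related factors, occurred in 1 of the 32 (3.12%), Atg3, beside 0.867% of all 27457 promoters and 1.77% of those of detected genes. CACGTG, which it contains, occurred in Atg14, Atg3 and Atg5, 9.38%, beside 6.65% of all promoters and 9.49% of those of detected genes.

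TGACNNNGC, the core read by NRF2, occurred in 7 of the 32 promoters (21.9%), those of Atg10, Atg4b, Atg4d, Gabarap, Map1lc3b, Ulk2 and Vmp1. It occurred in 12.2% of all promoters and 14.8% of those of detected genes. GGGCGG, the core read by SP1, occurred in 21 of the 32 (65.6%), beside 34.9% of all and 61.3% of those of detected genes. The median GC content was 60.0% for the 32 promoters, 52.3% for all and 60.3% for detected genes. The shares of CACGTG and GGGCGG and the GC content were thus near those of other detected genes. Those of TGACNNNGC and TCACGTGA were higher than among detected genes, but rest on 7 and 1 of the 32 promoters. Neither difference was tested. A match describes the letters alone, and no binding was measured.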

How the data were processed

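Cy3-labelled RNA of 4 cultures was hybridised to one-colour arrays, from 100 ng of RNA, per the labels' protocols. The deposited values are fluorescence intensity per spot, background-corrected within each array by Agilent Feature Extraction 11.0.1.1, per the file headers and the submitters' processing notes. The deposited detection and outlier flags, coded 0 or 1 with no unit, were used as given. Levels are log2 of the processed signal, less the 75th percentile of the 58717 spots per array that were not controls. Flagged spots were left out and spots of a probe averaged. A gene counts as detected if some probe of it was detected on every array, and its level is that of the brightest detected probe. Probes were matched to the listed genes by symbol, ignoring case, or by an older symbol that no other gene holds. For the background, a RefSeq table of GRCr8 named 23863 probes by accession, 5127 through a symbol and 354 through an older one, which left 16254 unnamed. Probe coordinates are the files' own (rn4). Exons and UTRs were not assigned.

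The members and lists were chosen with earlier results of these data known. The text names all 36 members. Of each further list it names the first 4 symbols with a probe, the genes not detected on all arrays, the macrophage markers and any detected marker of another type. Mitf and Foxo3 fall outside it and were named after their values were seen. An item that this rule names is not reported here. The one test was of spread between replicates: limma 3.58.1 in R 4.3.3 set each probe's variance against a robust prior fitted along signal level (F test, Benjamini-Hochberg over 19400 detected probes, threshold 0.05). It was tested on simulated data. The design text calls the replicates biological, and nothing in the labels says how the cultures were separated. All arrays lay on 1 slide, so no slide effect could be fitted. Their number limits the precision. Alternatives were another detection rule, background correction and scaling, flagged spots kept, the mean over probes, other priors, a threshold of 0.01 and each replicate left out. Tables and plots used Python 3.11.15, numpy 2.4.6, pandas 2.3.3 and matplotlib 3.10.9.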

Additional observations from a re-analysis of the deposited data

Results flagged for a closer look

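In 4 replicates, 1 lay far from the other three for 3 of 41 results examined, the levels of 34 genes and the means of 7 roles, which is 7.32%. Chance alone flags about 1 in 20 such groups. The 7 role means average the same 34 genes on the same arrays, so the 41 results are not separate. For Uvrag, replicate 4 was lowest and its gap to the nearest replicate was 0.947 of the whole range. This held for the brighter probe, while the second Uvrag probe was highest on replicate 4. For the mean of the conjugation enzymes, replicate 4 was lowest, with a gap of 0.978 of the range and a deviation of -0.07 log2. For the mean of membrane supply and lipid transfer, replicate 2 was lowest, with a gap of 0.931 and a deviation of -0.13, to which Atg2b, a dim gene, added most.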

How the results depend on the processing

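No paired analysis was possible because there is 1 group of samples. The count of 34 detected genes was the same with the looser flag, with detection on at least 2 arrays, with flagged spots kept, with probes matched by accession as well and without any 1 replicate, and it was 30 when every probe of a gene had to be detected. The 62 other pathway genes became 59 under that last rule. No gene of the 34 passed the variance test (limma's F test) under any alternative run for that test, and the smallest adjusted p ran from 0.509 to 0.991. At an unadjusted p under 0.05, 1 gene passed with normexp background correction, without the trend, with no filter on dim probes, and without replicate 3 or replicate 4. Over all probes, 1409 of 19400 passed that cutoff with normexp, 1016 of 19400 without the trend and 3448 of 45588 with no filter. Without replicate 3 it was 1123 of 19873 and without replicate 4 it was 1303 of 20162. A count of 1 gene does not exceed those shares. On adjusted p, the count of 33 over all probes moved to 270 with normexp and 50 with scaling on the median of detected probes. It was 1 with scaling on spike-in probes, 1121 of 45588 with no filter, and 0 without the robust step, without the trend or at 0.01. Leaving out 1 replicate gave 0 to 75, with 75, 47, 0 and 52 without replicates 1 to 4.

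The median SD of 0.109 was 0.498 with scaling on spike-in probes. On that scale the cultures also differ by the gap between spike-in and sample signal. That gap was 1.86, 1.87, 2.46 and 2.85 log2 on replicates 1 to 4. Under the main scaling, the median SD ran from 0.0959 to 0.114 when 1 replicate was left out, lowest without replicate 4. Levels moved by more than 1 SD for 26 of 34 genes with normexp, by -0.25 to 1.35, and for 10 with the mean over probes, by up to -2.53. The shift was 1.58 for all 34 with scaling on the median of detected probes and -2.26 with spike-in scaling. Readings under about 100 units, as for Atg13, Atg2b and Atg12, limit what can be said of those genes.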
